A study of Mus musculus with 3 samples.

Results

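Cassette exons, the exons that some transcripts of a gene include and others leave out, were collected from full-length transcripts of mouse CD4+ T cells. The transcript models of 3 libraries were pooled. An internal exon longer than 30 nt was taken as a cassette exon when 1 model held it between 2 introns and another model of the same strand held a single intron from the outer end of the first to the outer end of the second. Of 61200 internal exons longer than 30 nt, 1279 were chosen by this rule, which is 2.09%. The measured inclusion and skipping models themselves selected the exons, so the presence of both forms is a description and not a finding. Models counted as including or skipping an exon are those with exactly these introns. A model with other introns at the same place is in neither count, whether or not it holds the exon.

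Cassette exons are the most common kind of alternative splicing in mammals. The spliceosome joins the exon before to the exon after when the splice sites of the exon between them are passed over, and RNA-binding proteins such as SR proteins and hnRNPs shift this choice. An exon with a length divisible by 3 can be added or left out without a change of the reading frame. Other cassette exons bring a premature stop codon when they enter the transcript or when they leave it, and transcripts of that kind are often removed by nonsense-mediated decay. In T cells the best known case is Ptprc, which encodes the phosphatase CD45 and whose variable exons encode a part of the extracellular domain.

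The libraries were made from wild-type (WT) young adult male C57BL/6N mice by Iso-Seq, the PacBio method that reads complete cDNA molecules. The first held naive CD4+ T cells from spleens and lymph nodes. The others held cells purified as naive CD4+ T cells, labelled with the dye CellTrace Violet and then stimulated for 48 h. Stimulation was with plate-bound anti-CD3 and with anti-CD28 added to the cells. Sorting by dye peak gave cells with 0 divisions and cells with 2 divisions. The study describes its unstimulated naive cells as labelled with the dye too. The cells with 0 divisions are a mixed population by the study's own description. There was 1 library per condition, so no test between conditions was possible and no p-value is given. By a label on the deposited data, the naive library was run on another sequencing cell than both activated ones. An effect of that cell and an effect of activation cannot be told apart. The libraries held 10527, 12602 and 11109 transcript models in the order naive, 0 divisions and 2 divisions, with no read counts. A number of models is a number of distinct structures and not of molecules. Of 11 CD4 T cell marker genes, 11, 9 and 9 had a model, with Cd4, Cd3e, Thy1 and Lck in each library and Cd3g and Trac in the naive library only. Of 9 B cell marker genes, 6 had 21 models in the naive library, Ms4a1 and Cd79b among them, against 2 genes with 6 models at 0 divisions and 2 genes with 5 models after 2 divisions. Myeloid markers had 1, 0 and 0 models for 7 genes. Markers of CD8 T cells and NK cells had 2, 2 and 1 models for 5 genes. Cd8b1 had 1 model in the naive library and 1 at 0 divisions, Klrb1c 1 in the naive library and Nkg7 1 in each activated library. Cd8a and Ncr1 had 0 in each library.

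The splice sites of 11 cassette exons are shown because the results on T cell genes and on exons with many models turn on them. Each sequence was read from the GRCm38 genome in the direction of the transcript. The 3′ splice site is given as 20 bases of the intron before in lower case and 10 bases of the exon in capitals, and the 5′ splice site as 10 bases of the exon in capitals and 10 bases of the intron after in lower case. The sign after each position is the strand.
Ptprc 129 nt, 3′ splice site, chr1:138122575-138122604 (-): tccatccattaacataacagAACTGAGCAC
Ptprc 129 nt, 5′ splice site, chr1:138122446-138122465 (-): TATCATCCAGgtgaccactc
Ptprc 147 nt, 3′ splice site, chr1:138120157-138120186 (-): atctcactttctaacctcagGTGTGTTATC
Ptprc 147 nt, 5′ splice site, chr1:138120010-138120029 (-): GACCCACCAGgtttgggggc
Ptprc 141 nt, 3′ splice site, chr1:138117885-138117914 (-): ggtgacccttctgattgcagGTGTGCCAGG
Ptprc 141 nt, 5′ splice site, chr1:138117744-138117763 (-): ATCTCTTCAGgtgtgaccat
Ptprc 72 nt, 3′ splice site, chr1:138117016-138117045 (-): ttttgttcatttccttgcagGTGCCAGCCT
Ptprc 72 nt, 5′ splice site, chr1:138116944-138116963 (-): ACAACCATAGgtgacaatct
Cd47 63 nt, 3′ splice site, chr16:49868998-49869027 (+): gtctttttgtggtcttatagCCTTCAACAC
Cd47 63 nt, 5′ splice site, chr16:49869071-49869090 (+): TGCAAATTAGgtaatcatgc
Cd47 33 nt, 3′ splice site, chr16:49908683-49908712 (+): tgcttgttactaatcctcagCATTTAAAGA
Cd47 33 nt, 5′ splice site, chr16:49908726-49908745 (+): ATGAATGACGgtaagtatta
Fyb 138 nt, 3′ splice site, chr15:6644742-6644771 (+): caatgcctgatgctcccaagATCCGTGCCA
Fyb 138 nt, 5′ splice site, chr15:6644890-6644909 (+): AAGGTTCATCgtaagagtca
Lef1 41 nt, 3′ splice site, chr3:131204913-131204942 (+): aaagacacaattttctgcagGTACAGGTCC
Lef1 41 nt, 5′ splice site, chr3:131204964-131204983 (+): CTGAAACATGgtaagatcaa
Hnrnpa2b1 36 nt, 3′ splice site, chr6:51467417-51467446 (-): gttttttttctcccccccagAAAACTTTAG
Hnrnpa2b1 36 nt, 5′ splice site, chr6:51467381-51467400 (-): GAGGAAAAAGgtactctacc
Hnrnpa2b1 120 nt, 3′ splice site, chr6:51464538-51464567 (-): aaaggcttattttataatagGTGGCAATTT
Hnrnpa2b1 120 nt, 5′ splice site, chr6:51464418-51464437 (-): TATGGAGGAGgtaataaatt
Samhd1 123 nt, 3′ splice site, chr2:157101434-157101463 (-): agttctcatttaaattgtagCAATGTGGGG
Samhd1 123 nt, 5′ splice site, chr2:157101311-157101330 (-): TCTGGCCTCCgtgggtacca
In these sites the intron ended in ag and the next intron began with gt. The 36-nt exon of Hnrnpa2b1 followed a long run of pyrimidines, whereas the 138-nt exon of Fyb and the 129-nt exon of Ptprc followed mixed sequence.

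Stop codons that lie in cassette exons are shown for 6 exons, since the reading frame of the transcript ended there in the models that held the exon. The 27 bases are exonic, 12 on each side of the stop codon, which is in capitals.
Tra2b 276 nt, stop codon, chr16:22259169-22259195 (-): ctcaggaataagTGAagctgaaatttg
Srsf7 460 nt, stop codon, chr17:80205042-80205068 (-): agtcagtcgcctTGAttcagaatgtca
Prpf39 100 nt, stop codon, chr12:65055506-65055532 (+): cagaaactagtcTAGtggttcaataaa
Dgka 222 nt, stop codon, chr10:128727207-128727233 (-): ccaggcattttcTAGttgtagtctcca
Cd5 126 nt, stop codon, chr19:10727446-10727472 (-): atggccttgaacTAGttctccttcctc
Samhd1 123 nt, stop codon, chr2:157101348-157101374 (-): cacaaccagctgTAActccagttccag
The stop lay 79 nt into the 276-nt exon of Tra2b and 26 nt into the 460-nt exon of Srsf7, and 85, 60, 60 and 82 nt into the exons of Prpf39, Dgka, Cd5 and Samhd1. Only the stop of Samhd1 is that of an annotated protein-coding transcript in this set of 6.

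Both forms of an exon often came from the same library. Of the 1279 cassette exons, 132 had inclusion and skipping in each of the 3 libraries, 232 in 2 libraries and 821 in 1 library, and 94 had both forms only after pooling. The naive library held both forms of 511 exons, the library with 0 divisions of 675 and the library with 2 divisions of 495. The libraries held 41504, 48954 and 44004 internal exons longer than 30 nt in the same order, of which the exons with both forms made up 1.23%, 1.38% and 1.12%. Neither form was found for 184, 72 and 151 exons. The most frequent arrangement after both forms everywhere was both forms at 0 divisions with inclusion only in the other 2 libraries, in 117 exons, followed by both forms at 0 divisions with skipping only in the others, in 109.

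**Figure D1:**
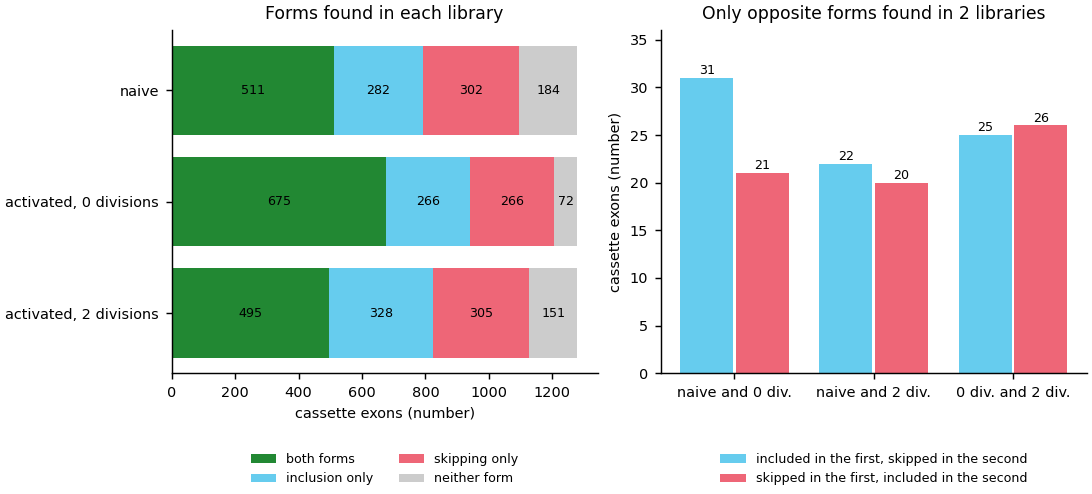
Left, horizontal bars give the number of the 1279 cassette exons found in each library with both forms, inclusion only, skipping only or neither form. Right, bars give the number of exons found only included in one library and only skipped in another, for each pair of libraries. The library with 0 divisions held both forms of most exons (675), and each bar on the right lies between 20 and 31.

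The support of the rarer form was thin for most exons. In 846 of 1279 exons (66.1%) it came from 1 model over the 3 libraries, in 433 (33.9%) from 2 or more and in 64 (5%) from 5 or more. Skipping was the rarer form in 552 exons and inclusion in 573, and 154 exons had as many models of each. Cassette exons were found in 938 genes, which is 14.8% of the 6333 genes with a model of 3 or more exons. The share was larger in genes with more such models. It was 0.371% of 1349 genes with 1 model, 5.21% of 979 genes with 2 and 10.4% of 1775 genes with 3 to 4, and it was 24.8% of 1609 genes with 5 to 9 and 48.0% of 621 genes with 10 or more. Genes with a cassette exon had a median of 7 models and the others of 3. The number of models per gene therefore moved with the finding of a cassette exon. Since the rule needs 2 different models, this rise is in part built into it. In 705 genes there was 1 cassette exon and in 27 genes there were 4 or more. Pkm, a glycolytic enzyme, had 8, and Hnrnpa2b1 and Nop56, a protein of box C/D ribonucleoproteins, had 6 each. Of all members, 178 overlapped another member, and these share sequence and models.

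Cassette exons were shorter than the other internal exons. Their median length was 107 nt (quartiles 73 and 152.5 nt), against 121 nt (89 and 164 nt) over 59921 other internal exons. Exons under 60 nt made up 13.2% of the cassette exons (169) and 6.68% of the others, whereas exons over 300 nt made up 5.86% and 5.80%. A length divisible by 3 was found in 536 of 1279 cassette exons, which is 41.9% (exact Clopper-Pearson 95% interval 39.2 to 44.7%), against 38% (37.6 to 38.4%) of the other exons. These intervals cover counting error only, since exons of one gene are not independent. The remainder was 1 in 361 cassette exons and 2 in 382. Among exons annotated in full as coding sequence, 310 of 633 cassette exons (49.0%, 45.0 to 52.9%) and 38.7% (38.3 to 39.1%) of 53047 other exons had a length divisible by 3.

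Lengths divisible by 3 were more frequent the more libraries held both forms. Among cassette exons annotated in full as coding, it was 24.1% (10.3 to 43.5%) of 29 exons with both forms in no single library and 45.0% (40.1 to 50%) of 411 exons with both forms in 1 library. It was 59.7% (50.5 to 68.4%) of 124 exons with both forms in 2 libraries and 63.8% (51.3 to 75%) of 69 exons with both forms in 3 libraries. Neighbouring groups in this order had overlapping intervals, except those with both forms in 1 and in 2 libraries. Over all cassette exons the share was 37.8% (34.5 to 41.2%) where the rarer form had 1 model and 49.9% (45.1 to 54.7%) where it had 2 or more. Exons after a splice donor in a 5′ untranslated region had a length divisible by 3 in 81 of 259 cases (31.3%, 25.7 to 37.3%). Whether such an exon itself holds a start codon was not checked.

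**Figure D2:**
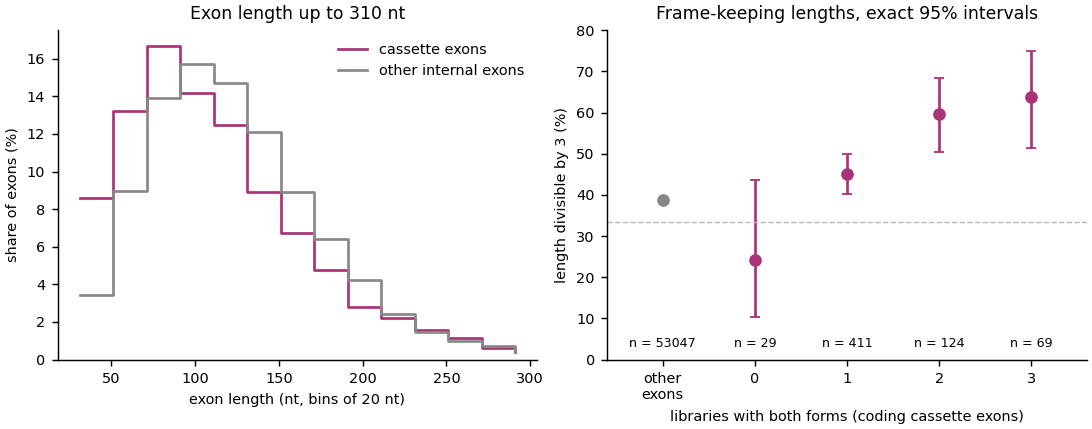
Left, lines give the share of cassette exons and of other internal exons in each 20-nt bin of exon length, up to 310 nt. Right, points give the percentage of exons with a length divisible by 3 among exons annotated in full as coding, for other internal exons and for cassette exons by the number of libraries that held both forms, with exact 95% intervals, and the dashed line marks one part in 3. Cassette exons lie to the left of the other exons, and their points go from 24.1% to 63.8%.

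Most cassette exons were known to the GENCODE M21 annotation in both forms. Of 1269 on the reference chromosomes, 747 (58.9%) had both forms annotated, 230 (18.1%) inclusion only, 252 (19.9%) skipping only and 40 (3.15%) neither. Inclusion was taken as annotated where the exon and the introns on its sides were, and skipping where its intron was. The rarer form had 2 or more models in 344 of the 747 exons annotated in both forms (46.1%). This held for 15.2% of the exons with only inclusion annotated and for 18.7% of those with only skipping annotated. An unannotated form was mostly found in 1 library. Where only inclusion was annotated, skipping was found in 1 library for 195 of 230 exons and in 3 libraries for 6. Where only skipping was annotated, inclusion was found in 1 library for 214 of 252 exons and in 3 for 11. With the exons annotated in neither form, unannotated skipping was found for 111, 140 and 82 exons in the naive, 0-division and 2-division libraries, and unannotated inclusion for 120, 139 and 97.

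The splice sites of cassette exons were somewhat farther from the common pattern. Each site was scored by the sum of log2 ratios of its bases to equal base use, with base frequencies taken from the other internal exons, so that a higher score is nearer to that pattern. The median score of the 3′ splice site was 8.81 (quartiles 6.22 and 11.01) in cassette exons and 9.39 (7.18 and 11.47) in 59247 other exons. That of the 5′ splice site was 7.53 (5.70 and 9.09) against 8.25 (6.39 and 9.87). Exons for which only skipping was annotated had a median 5′ score of 6.68, and those for which only inclusion was annotated had 8.29. In the printed set, the 3′ site of Fyb scored 1.87 and that of the 129-nt exon of Ptprc 2.73, whereas the 72-nt exon of Ptprc reached 15.20 and the 36-nt exon of Hnrnpa2b1 14.44. The introns before and after cassette exons had median lengths of 1484 and 1385 nt, against 1132 and 1034 nt beside the other exons.

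Repeat sequence was more frequent in cassette exons. At least 50% of the exon was marked as repeat or simple sequence in the reference genome for 64 of 1269 cassette exons (5.04%) and for 0.635% of the other exons. This was the case for 1 of the 230 exons with only inclusion annotated, for 32 of the 747 annotated in both forms (4.28%) and for 27 of the 252 with only skipping annotated (10.7%). The 123-nt exon of Samhd1, printed above, was marked along 100% of its length.

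Most of the short motifs searched had similar shares near cassette exons and near other exons, and a run of TTTTTTT had a larger share near cassette exons on both sides. TGCATG, the motif bound by Rbfox proteins, was present in the last 100 nt of the intron before 3.47% of cassette exons and 3.11% of other exons, and in the first 100 nt of the intron after 3.94% and 3.79%. GCATG, which every TGCATG also holds, was present at 8.51% and 8.43% before and at 9.93% and 10.2% after. TCTCTCT, a pyrimidine motif of the kind bound by Ptbp1, was present at 4.96% and 4.29% before the exon and at 1.81% and 2.10% after it. ACACACA was present at 1.26% and 1.20% before and at 1.34% and 1.22% after, and GGGGG at 5.83% and 6.56% before and at 9.69% and 10.1% after. TTTTTTT was present at 9.93% and 7% before and at 5.75% and 4.14% after. The search covered the strand of the transcript only. A match is a description of the sequence and no evidence of binding.

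Cassette exons in coding sequence split into those that left the protein readable either way and those that did not. Of 1269 exons, 971 followed a coding splice donor, 259 a donor in a 5′ untranslated region and 8 a donor in a 3′ untranslated region. Another 12 lay in noncoding genes and 19 elsewhere. For the 971, the frame was read on from the annotated donor before the exon through the rest of each model. An annotated stop codon of the gene was reached by both forms in 367 exons (37.8%), by inclusion models only in 269 (27.7%), by skipping models only in 270 (27.8%) and by neither in 65. A form was placed by whether at least 1 of its models reached such a stop. A difference elsewhere in a model, such as an early 3′ end, counts in these classes too. Of exons with a length divisible by 3, 300 of 441 (68.0%) kept an annotated stop in both forms, against 67 of 530 (12.6%) of the others. Models with the exon stopped inside it in 285 exons (29.4%), and in 227 of these only skipping models reached an annotated stop.

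Where 1 form was annotated, the other form was mostly the one without an annotated stop. Annotated stops were taken from protein-coding transcripts of the annotation only, and those of other transcript types were left out. A stop that only an unannotated form brings could not be among them, so the measure itself favours this pattern. Where only skipping was annotated, 154 of 189 exons (81.5%) had an annotated stop in skipping models only, and 142 exons (75.1%) held a stop codon. Where only inclusion was annotated, 134 of 197 exons (68.0%) had it in inclusion models only. Among exons annotated in both forms, 288 of 566 (50.9%) kept it in both, 128 in inclusion models only and 111 in skipping models only. A premature stop was counted where a stop that is not annotated lay more than 50 nt before the last exon junction. Every inclusion model had one in 252 of the 270 exons with skipping as the intact form, and every skipping model in 226 of the 269 exons with inclusion as the intact form. The disrupted forms were present in each library. Inclusion of the 270 was found for 115, 157 and 121 exons in the naive, 0-division and 2-division libraries, while skipping of the same exons was found for 226, 253 and 231. Skipping of the 269 was found for 126, 140 and 96, and inclusion for 222, 251 and 237.

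**Figure D3:**
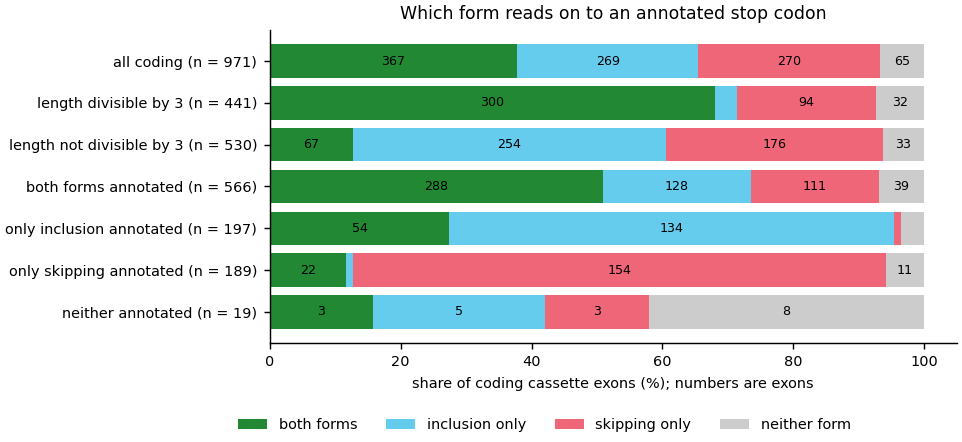
Stacked bars give the share of the 971 coding cassette exons whose inclusion models, skipping models, both or neither read on to an annotated stop codon, in all and by exon length and annotation, with numbers of exons inside. Green is widest for lengths divisible by 3 (300 of 441), and the exons with only skipping annotated are mostly red (154 of 189).

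In genes known for alternative splicing in lymphocytes, 39 cassette exons were found in 16 of the 31 listed genes that had a model of 3 or more exons (51.6%, with a median of 8 models per gene). Each of the 39 had both forms in at least 1 library and 7 had them in all 3, and 23 had a length divisible by 3. Over all cassette exons 92.7% had both forms in at least 1 library, 10.3% had them in all 3 and 41.9% had a length divisible by 3. Of all genes 14.8% had a cassette exon, and of those with 5 to 9 models 24.8%. Both forms reached an annotated stop in 22 of the 32 that lay in coding sequence. Over all coding cassette exons this share was 37.8%, and the list was chosen because its genes are known for such exons.

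Ptprc had 4 cassette exons, next to each other in the gene and each with a length divisible by 3. In the order of the transcript they are 129 nt (chr1:138122456-138122584), 147 nt (chr1:138120020-138120166), 141 nt (chr1:138117754-138117894) and 72 nt (chr1:138116954-138117025). The 129-nt exon was included in 1 model of the naive library and in none at 0 or 2 divisions, with 8, 5 and 4 skipping models. The 147-nt exon was included in 6, 4 and 4 models and skipped in 6, 8 and 8. The 141-nt exon was included in 2, 1 and 0 models and skipped in 7, 4 and 4. The 72-nt exon was included in 6, 8 and 8 models and skipped in 2, 4 and 2. Skipping of the 72-nt exon here is a single intron that passes over all 4 exons. These counts need the exact introns and so differ from the number of models that hold an exon.

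Whole models showed which of the 4 exons occurred together. Of 48 Ptprc models that spanned them, 22 held the 72-nt exon alone, 14 the 147-nt and 72-nt exons, 8 none of the 4, 3 the 147-nt, 141-nt and 72-nt exons and 1 the 129-nt, 147-nt and 72-nt exons. No model held all 4. Models with the 147-nt exon were 9 of 17 in the naive library, 5 of 17 at 0 divisions and 4 of 14 after 2 divisions, and models with the 72-nt exon were 15, 13 and 12. The single model with the 129-nt exon was naive. B cells are known for long CD45 forms, and B cell markers had 21 models in the naive library against 6 and 5. Their part in the longer forms was not tested.

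Cd47, which encodes a surface receptor that restrains uptake by phagocytes, had 3 cassette exons. The 63-nt exon (chr16:49869018-49869080) was included in 5, 5 and 4 models in the order naive, 0 divisions and 2 divisions, and skipped in 4, 8 and 6. The 33-nt exon (chr16:49908703-49908735) was included in 3, 3 and 2 models and skipped by the exact intron in 0, 4 and 2. Among models that spanned the 3 exons, however, 6, 10 and 7 lacked the 33-nt exon, the naive library included. The 32-nt exon (chr16:49906781-49906812) was included in 6, 8 and 6 models and skipped in 1 model after 2 divisions. Of 31 models that spanned all 3, 12 held the 32-nt exon alone, 10 the 63-nt and 32-nt exons, 4 the 32-nt and 33-nt exons, 4 all 3 and 1 none. The 63-nt exon was thus found with and without the 33-nt exon. Each of these combinations with the 32-nt exon was present in each library.

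The remaining genes of the lymphocyte list gave smaller numbers. Fyb, an adaptor protein of integrin activation downstream of the T cell receptor, had a 138-nt exon (chr15:6644762-6644899) included in 2, 1 and 1 models and skipped in 4, 5 and 4. Lef1, a transcription factor of the Wnt pathway, had a 41-nt exon (chr3:131204933-131204973) included in 13, 7 and 4 models and skipped in 1 model of each library. The 41-nt exon of Lef1 held an annotated stop codon in all 24 inclusion models, and the skipping models reached another annotated stop. Cd6, a surface receptor of T cells, had exons of 117 nt and 303 nt, each skipped in 1 model of each library, against 20 and 16 inclusion models in all. Celf2, an RNA-binding splicing regulator, had a 144-nt exon with 5, 3 and 3 inclusion models and 2, 1 and 0 skipping models. Ikzf1, the transcription factor Ikaros, had a 261-nt exon with 2, 1 and 0 models of inclusion and 2, 1 and 0 of skipping. Tcf7, a transcription factor of naive T cells, had a 93-nt exon included in 8, 1 and 0 models and skipped in 1 naive model.

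For Mbnl1 and Dgka most models of these exons were naive. Mbnl1, a splicing regulator, had 5 cassette exons, among them one of 54 nt with 1, 0 and 0 inclusion and 9, 1 and 0 skipping models and one of 36 nt with 8, 2 and 0 inclusion and 2, 0 and 0 skipping models. Dgka, a lipid kinase that lowers diacylglycerol signals of the T cell receptor, had 4. Its 222-nt exon (chr10:128727059-128727280), which is not annotated and holds a stop codon, was included in 3 naive models and in none of the activated libraries, with 29, 5 and 3 skipping models. The 89-nt exon of Dgka was included in 22, 4 and 3 models and skipped in 2, 1 and 0. All 3 skipping models and 5 of 29 inclusion models had a premature stop. Since Dgka had so few models after activation, a form that was not found there could not be looked for at the depth of the naive library.

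Pkm encodes pyruvate kinase of muscle type, whose mutually exclusive exons give the M1 and M2 enzymes. Both are 167 nt and both met the rule, since each can be passed over by an intron that a model without it holds. The first (chr9:59675029-59675195) was included in 0, 1 and 1 models and skipped in 2, 17 and 14. The second (chr9:59675568-59675734) was included in 2, 13 and 14 models and skipped in 0, 4 and 1. Of 38 models that spanned both, 28 held the second alone, 1 the first alone, 1 both and 3 neither. The other 5 held an exon with other bounds there, among them the members of 186, 128 and 706 nt described next. Of the other Pkm members, that of 186 nt had an earlier and that of 128 nt a later start of the second exon, and one of 706 nt ran from the start of the first to the end of the second. Foxp1, a transcription factor that keeps T cells quiescent, had a 122-nt exon skipped in 2 naive models, in both with a premature stop, and included in 7, 5 and 5. Fas, the death receptor, had unannotated exons of 192 nt and 161 nt, each with a stop codon, in 1 and 2 activated models and in none of the naive library, where 1 skipping model was found.

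The 20 cassette exons with the most models of the rarer form were all found in both forms in each library, against 10.3% of all cassette exons. A choice by the number of models favours this, so it is a description and not a finding. Hnrnpa2b1 held 3 of the 20, Ptprc 2, and 15 other genes 1 each.

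**Figure D4:**
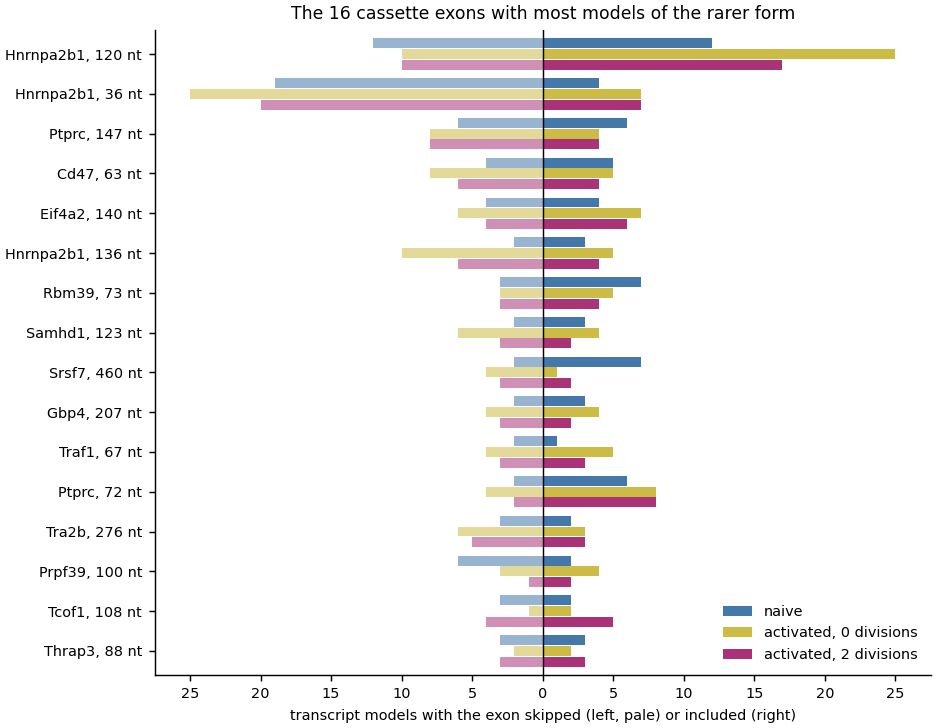
Bars give the number of transcript models that skip (left, pale) or include (right) each of the 16 cassette exons with the most models of the rarer form, by library. The 120-nt exon of Hnrnpa2b1 has the longest bars on the inclusion side (25 models at 0 divisions). Every exon shown has both forms in each library, which the choice by number of models favours.

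Genes of splicing factors held 84 cassette exons in 43 of the 63 listed genes with a model of 3 or more exons (68.3%, with a median of 12 models per gene), against 48.0% of all genes with 10 or more models. Of the 84, 37 had a length divisible by 3, 81 had both forms in at least 1 library and 23 had them in all 3, against 41.9%, 92.7% and 10.3% of all cassette exons. Of the 68 in coding sequence, skipping models only reached an annotated stop in 28, inclusion models only in 14 and both in 23. Over all 971 coding cassette exons the corresponding counts were 270, 269 and 367.

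Hnrnpa2b1, an RNA-binding protein with a short and a long isoform, had a 36-nt exon near its start (chr6:51467391-51467426) that was included in 4, 7 and 7 models and skipped in 19, 25 and 20. Its 120-nt exon (chr6:51464428-51464547) was included in 12, 25 and 17 models and skipped in 12, 10 and 10. Among models that spanned both exons, the 120-nt exon was held by 11 and lacked by 12 in naive cells, held by 19 and lacked by 11 at 0 divisions, and held by 13 and lacked by 13 after 2 divisions. Of these 79 models, 31 held the 120-nt exon alone, 30 neither, 12 both and 6 the 36-nt exon alone. A 136-nt exon of Hnrnpa2b1 in the 3′ untranslated region was included in 3, 5 and 4 models and skipped in 2, 10 and 6.

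Exons with a premature stop were found in Srsf7, Tra2b, Rbm39 and Prpf39, all of which act in splicing. The 460-nt exon of Srsf7 (chr17:80204622-80205081) was included in 7, 1 and 2 models and skipped in 2, 4 and 3. All 10 inclusion models of Srsf7 had a premature stop and none of the 9 skipping models did. The 276-nt exon of Tra2b (chr16:22258986-22259261) was included in 2, 3 and 3 models and skipped in 3, 6 and 5, and all 8 inclusion models had a premature stop. The 73-nt exon of Rbm39 (chr2:156178880-156178952) was included in 7, 5 and 4 models and skipped in 3 of each library, with a premature stop in all 16 inclusion models. The 100-nt exon of Prpf39 (chr12:65055434-65055533) was included in 2, 4 and 2 models and skipped in 6, 3 and 1, with a premature stop in all 8 inclusion models. The reverse case was Eif4a2, a helicase of translation initiation, whose 140-nt exon (chr16:23109120-23109259) was included in 4, 7 and 6 models and skipped in 4, 6 and 4, with a premature stop in all 14 skipping models.

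In Samhd1, Ptbp1 and Pcyt2, at least 1 model of each form reached an annotated stop. Samhd1, which degrades deoxynucleotides, had the 123-nt exon marked as repeat (chr2:157101321-157101443) in 3, 4 and 2 models and lacked it in 2, 6 and 3. Ptbp1, a repressor of exon inclusion, had a 78-nt exon in 2, 3 and 2 models and lacked it in 2, 4 and 2, with a premature stop in 1 of 7 inclusion and 1 of 8 skipping models. Pcyt2, an enzyme of phospholipid synthesis, had a 54-nt exon in 2, 3 and 3 models and lacked it in 2, 3 and 2, with a premature stop in 5 of 8 and 4 of 7. Tcof1, a nucleolar protein of ribosome biogenesis, had a 108-nt exon in 2, 2 and 5 models and lacked it in 3, 1 and 4. No model of either form of the Tcof1 exon reached an annotated stop, but a premature stop was found in 0 of 9 inclusion and 1 of 8 skipping models. Traf1 and Gbp4, genes of cytokine signaling and of interferon-induced defence, had exons that followed a donor in the 5′ untranslated region. These exons were included in 1, 5 and 3 and in 3, 4 and 2 models. Gbp4 belongs to a family of close copies, and reads of such genes may have been placed on the wrong copy.

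**Figure D5:**
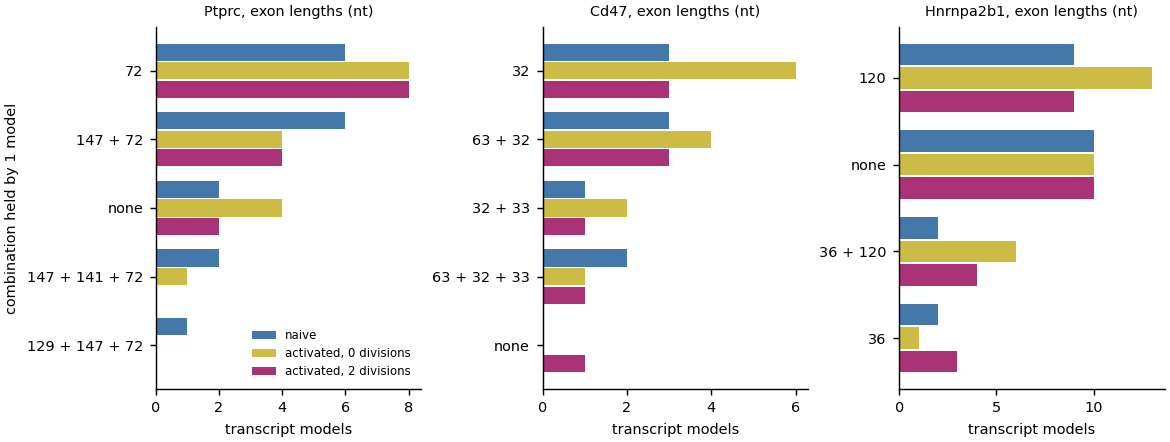
Bars give the number of transcript models by library that span all listed cassette exons of Ptprc, Cd47 or Hnrnpa2b1 and hold the combination named on the vertical axis by exon lengths in nt. For Ptprc, the 147-nt exon with the 72-nt exon has 6 naive and 4 and 4 activated models, and the combinations with the 141-nt or 129-nt exon have 3 and 1 in all.

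Pairs of cassette exons in one gene could be read on single models. In 348 pairs of exons that did not overlap, at least 1 model showed the form of both, and 126 pairs in 62 genes had 10 or more such models. Of these 126, 21 had all 4 combinations of inclusion and skipping, 72 had 3, 5 had 2 and 28 had 1. Since a model counted for an exon only with the exact introns on its sides, some pairs could show 1 combination only. The pair in Hnrnpa2b1 had the most models and showed all 4 combinations. Hnrnpk, an RNA-binding protein, had exons of 44 nt and 72 nt that were both included in 34 of 43 models, with 5 models that held the first only, 4 the second only and none that lacked both.

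Exons found only included in one library and only skipped in another were few in each pair of libraries. Of 1033 exons with a model in naive cells and in cells with 0 divisions, 31 were included in naive cells and skipped at 0 divisions (3.00%), and 21 the other way round (2.03%). Of 965 exons with a model in naive cells and after 2 divisions, 22 went from inclusion to skipping (2.28%) and 20 from skipping to inclusion (2.07%). Of 1096 exons with a model in both activated libraries, 25 were included at 0 divisions and skipped after 2 divisions (2.28%), and 26 the other way round (2.37%). The pairs of naive and activated libraries thus had shares like those of the pair of activated libraries. In 51, 41 and 51 of these exons, in the order of the pairs, at least one of the 2 libraries held a single model of the exon, and 1, 1 and 0 had 2 or more models in each of the 2.

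A model of either form was found in all 3 libraries for 943 exons. For 16 of them (1.70%) the naive library held one form only and both activated libraries the other form only. The library with 0 divisions stood alone in this way for 11 exons (1.17%) and that with 2 divisions for 13 (1.38%). Of the 16, 10 were included in naive cells only and skipped in both activated libraries, and 6 the reverse. Gpcpd1, a phosphodiesterase of phospholipid metabolism, was the one with 2 or more models in each library. Its 76-nt exon (chr2:132558607-132558682) was skipped in 2 naive models and included in 3 and 2 activated models, and only the inclusion models reached an annotated stop. Pja2, a ubiquitin ligase, had a 186-nt exon skipped in 1 naive model and included in 2 and 2 activated models. Hnrnph3, a splicing factor, had a 139-nt exon skipped in 1 naive model and included in 1 and 3. Exons of Galns, Pot1a and Ewsr1 were each skipped in 1 naive model and included in 1 model of each activated library. That of Ewsr1 is an unannotated stretch of 2949 nt. It runs from the start of a 181-nt cassette exon to the end of a 35-nt one and keeps the sequence between them.

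The 10 exons of the other direction included those of Cdk2, Plgrkt, Polr1e, Rsrc1, Stard3nl, Cenpo, Nln, Prmt7 and Xlr3b. Each of the 10 was included in 1 naive model except that of Plgrkt, which was included in 2. The 53-nt exon of Cdk2, a kinase of S phase entry, was skipped in 2 and 2 activated models. In 6 of the 10 only skipping models reached an annotated stop. Xlr3b is one of several near-identical genes, so its models may have been placed on the wrong copy.

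Other gene groups held fewer cassette exons. Of all genes with a model of 3 or more exons 14.8% had a cassette exon, and of those with 5 to 9 such models 24.8%. T cell receptor signaling genes had 18 in 10 of 38 listed genes with a model of 3 or more exons (26.3%, median 7 models per gene). Of the 18, 11 had a length divisible by 3, against 41.9% of all cassette exons. Besides Fyb and Dgka these genes included Cd5, an inhibitory receptor. An unannotated 126-nt exon of Cd5 with a stop codon was found in 0, 1 and 1 models against 6, 10 and 10 skipping models. Lck, the kinase that phosphorylates the T cell receptor, had an unannotated 80-nt exon with a stop codon in 2, 0 and 0 models against 10, 6 and 7. Translation and ribosome genes had 21 in 11 of 42 genes (26.2%, median 9), led by Eif4a2 and Nop56, whose 101-nt exon was included in 5, 11 and 10 models and skipped in 1, 2 and 2. Cell cycle and replication genes had 8 in 7 of 44 genes (15.9%, median 5). None of the 8 had both forms in all 3 libraries, against 10.3% of all cassette exons, a difference that 8 exons cannot establish. Cdk2 also had a 144-nt exon that ends at the same base as the 53-nt exon, included in 2 models of each library and skipped in 0, 2 and 2. Mcm4, a subunit of the replicative helicase, had a 96-nt exon included in 1, 2 and 1 models and skipped in 0, 1 and 1.

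Genes of cleavage and polyadenylation, the machinery that sets 3′ ends, had 5 cassette exons in 3 of 17 genes (17.6%, median 5). Fip1l1, a subunit of the cleavage and polyadenylation specificity factor, had a 108-nt exon (chr5:74564519-74564626) included in 1, 4 and 3 models and skipped in 1, 4 and 2. A 69-nt exon of Fip1l1 was included in 2 models at 0 divisions only and skipped in 2, 6 and 5. Cpsf6, a subunit of cleavage factor I, had a 111-nt exon included in 1, 0 and 1 models and skipped in 4, 4 and 5. All 3 kept an annotated stop in both forms. The corresponding share over all genes was 14.8%, with the dependence on the number of models given above.

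At the length limit, 21 exons of 30 nt or less met the rule in all other respects and 18 members were 31 to 35 nt long. Just outside were exons of Acly at 30 nt, with 1, 2 and 1 inclusion and 1, 1 and 1 skipping models, and of Cenpc1 and Sf3b3 at 29 nt. Just inside were exons of Nae1 at 31 nt, with 1, 1 and 1 inclusion and 0, 1 and 0 skipping models, and of Ccnk and Cd47 at 32 nt. The longest members were 2949 nt in Ewsr1, 2281 nt in Kxd1 and 1584 nt in Ythdf2, each with 1 model of the rarer form over the 3 libraries. That of Ewsr1 holds a 181-nt member, a 35-nt member and the sequence between them.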

How the data were processed

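One naive, one 0-division and one 2-division library of CD4+ T cells were sequenced on a PacBio Sequel instrument. According to the study's methods, ccs and lima gave primer-free consensus reads, isoseq3 kept and clustered those ending in poly(A), and the clusters were aligned by pbmm2, collapsed again with isoseq3 and classified by SQANTI3. The submitters' processing notes name minimap2, Subread, mm10 and GRCm38. The deposited values are exon positions of transcript models, with neither read counts nor any other measure of abundance.

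Models were pooled and cassette exons found by the stated rule with Python 3.11.15, after a check on simulated models with known cassette exons. Genes, coding frames and stop codons came from GENCODE M21, another release than the study's, and sequence from GRCm38. Of the members, 10 on patch or unplaced sequences had no annotation or sequence. Intervals are exact Clopper-Pearson intervals at 95% (scipy 1.17.1). Collapsing merges reads of like structure, rare forms may be missed at this depth, and small alignment errors can make false introns. No test was run, with 1 library per condition. The members and gene lists were chosen with earlier results of these data known. Named exons were those of the lymphocyte list, the 20 with the most models of the rarer form, those with opposite forms in naive cells and both activated libraries, up to 10 of splicing factors, up to 3 of each other list, and those at the length limits, and some of these are not reported here. Alternatives changed the length minimum, the introns used, the models required and the libraries pooled.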

Additional observations from a re-analysis of the deposited data

How the results depend on the processing

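With at least 2 models for each form, 433 cassette exons were left, of which 49.9% had a length divisible by 3 and 430 had both forms in a library, and the exons with opposite forms numbered 6 for naive cells and 0 divisions, 8 for naive cells and 2 divisions and 3 for both activated libraries. With all 3 introns annotated, whether or not the exon itself was, there were 759 exons, 48.5% with a length divisible by 3 and 709 with both forms in a library, and 26, 18 and 30 with opposite forms. Both alternatives remove exons by construction. Leaving out 1 library at a time gave 883 to 1032 cassette exons, 841 to 979 with both forms in a library and 42.3 to 44.8% with a length divisible by 3, the highest share without the naive library. Of 63 alternatives over 6 results, 50 stayed within 1.5 times the count or within the interval of the share and 13 did not. No paired analysis was possible because each condition had 1 library and no result came from a test. With 1 model behind the rarer form of most exons, a form that was not found in a library cannot be told apart from one missed at its depth.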
